A study of Saccharomyces cerevisiae with 26 samples.

Results

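Gene expression of the Saccharomyces cerevisiae reference strain CEN.PK113-7D was measured 10 min after a pulse of glucose given together with a switch from air to nitrogen. The comparison rests on 5 of the 26 arrays of the series, the 2 labelled 10 min and the 3 labelled steady state for that strain. Both groups are the same haploid prototroph of genotype MATa MAL2-8c SUC2, with no gene deleted. The steady state cultures were glucose-limited and aerobic and were kept at 30 °C and pH 5.0, with a dilution rate of 0.1 per h. For the pulse, sparging with nitrogen began 2 min before 200 mM glucose was injected, and the medium pump was stopped just before the injection. The effects of glucose, of the loss of oxygen and of the stopped feed therefore cannot be told apart in these groups. The labels describe 2 independent cultures for the times after the pulse and 3 for steady state, and they do not say whether all times came from the same vessels. The arrays at 5 and 30 min, 2 each from the same strain, serve below to place the 10 min sample in time.

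Yeast growing on a trickle of sugar respires it and keeps ready the enzymes for using ethanol, acetate and fatty acids, a glycogen and trehalose reserve, and high-affinity sugar uptake. When glucose becomes abundant, sensors at the plasma membrane and the Ras and protein kinase A pathway signal its presence, and the Snf1 kinase, which keeps the genes for alternative carbon sources on, is switched off. Cells then repress respiratory and gluconeogenic genes, raise the expression of low-affinity hexose transporters and of the machinery that builds ribosomes, and ferment sugar to ethanol.

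Each value is a linear signal of an Affymetrix probe set in an extract of a whole culture, so fewer cells expressing a gene and less of its RNA per cell cannot be told apart. The deposited arrays share 1 trimmed mean, so a change in total RNA would not show. Signals are printed as deposited. Changes are on the log2 scale, with 12 (the floor) standing in for every lower signal. A fold change whose lower group has an array at the floor is therefore a lower bound and is given as at least that size. The 10 min arrays correlated at 0.991 across genes, and the 3 steady state arrays at 0.974 to 0.992, replicate 2 being the farther one, where genes are not independent replicates. The median signal was 35.4 and 36.4 on the 10 min arrays against 43.7 to 45.9 at steady state, although the trimmed mean was the same. As a measure of intact RNA, the actin signal at the 5' end over that at the 3' end was 0.804 and 0.747 at 10 min and 0.778 to 0.923 at steady state. The mating type fitted the label, since the a-factor gene MFA1 gave signals of 1780.3, 1942 and 2025 at steady state and the receptor gene STE2 gave 225, 225 and 209. The alpha-cell receptor gene STE3 was at 29.0, 38.1 and 31.3, and the alpha markers STE3, SAG1 and MF(ALPHA)1 were low but above the floor on all 5 arrays. SFP1, which encodes an activator of ribosome production and is deleted in the other strain of the series, was at 100.6, 99.3 and 116 at steady state and at 154 and 145 at 10 min.

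At 10 min 847 of 5256 genes were higher than at steady state (16.1%) and 1777 were lower (33.8%), at an adjusted p under 0.05, which makes 49.9% in either direction. Of these, 330 genes (6.28%) were higher by at least 2-fold and 585 (11.1%) lower by at least 2-fold. The 5 arrays did not overlap between the groups for 1151 genes in the higher direction (21.9%) and 2363 in the lower (45.0%). A lack of overlap named for single genes below was thus common. The median log2 change over all genes was -0.19 on the deposited scale. It was -0.04 after quantile normalization and 0.11 when the arrays were given a common median, and the calls then split into 1053 higher and 1298 lower, and into 1465 higher and 901 lower. The higher share of the calls thus ran from 32.3% to 61.9% with the scaling, and 818 genes were higher (15.6%) and 868 lower (16.5%) under all 3 scalings. Counts below are on the deposited scale, followed by the number that held under all 3. They are to be read beside the shares of all genes, 16.1% higher and 33.8% lower, or 15.6% and 16.5% under all 3. The plot of gene lists shows that the lists moved far apart from each other, whichever line is taken as no change.

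**Figure D1:**
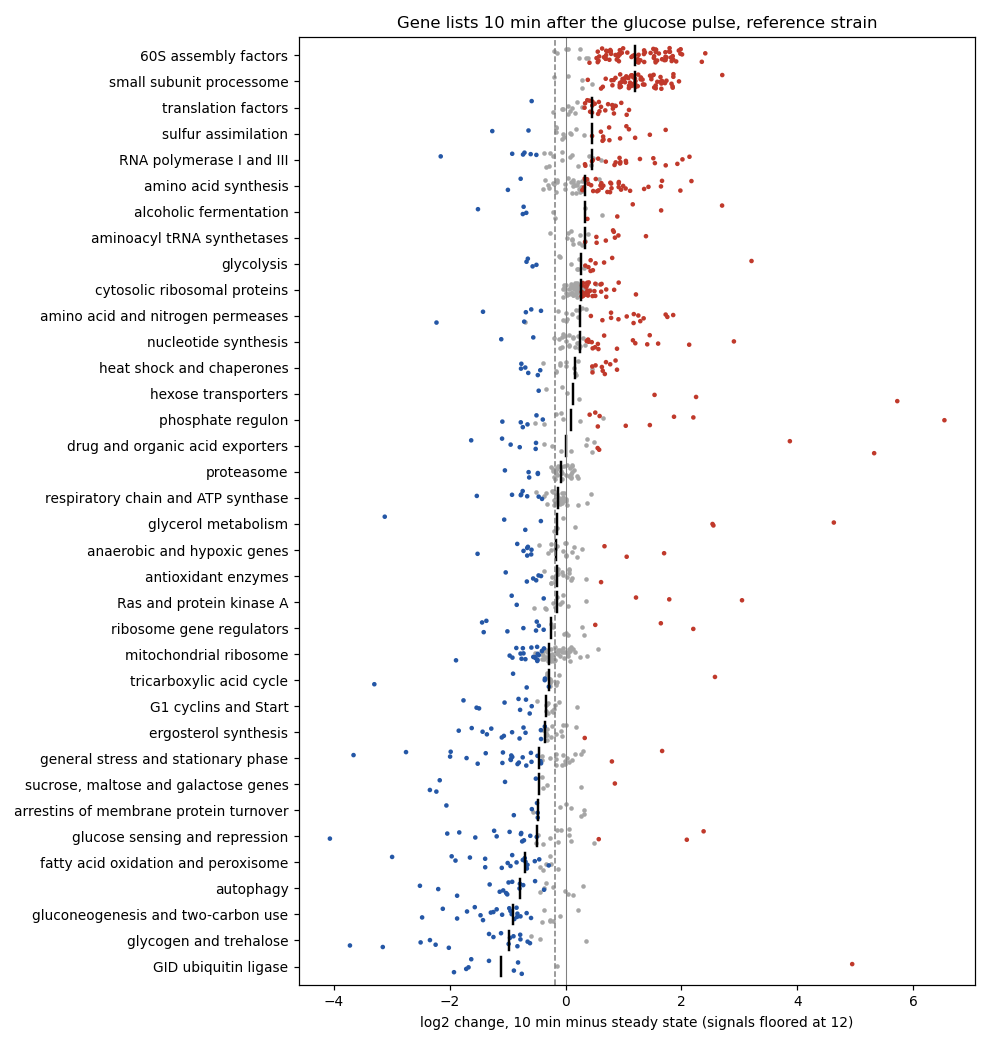
Log2 change from steady state to 10 min after the pulse (x axis) for each measured member (points) of 36 gene lists (rows), ordered by list median (black bars). Red and blue points passed the test as higher and lower, grey points did not, and the dashed line marks the median of all genes at -0.19. The ribosome assembly lists lie at the top with medians of 1.20 and 1.21, and the GID ubiquitin ligase list at the bottom with -1.11.

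The genes for glucose uptake and sensing changed in both directions. HXT1, which encodes the low-affinity transporter used when glucose is abundant, gave signals of 4.6, 7.8 and 7.2 at steady state, 13.3 and 12.3 at 5 min and 645 and 624.5 at 10 min. It was thus at or near the floor until 5 min and on by 10 min, with a log2 change of 5.72 ± 0.134 (SE, adjusted p = 3.5e-11), at least 52.9-fold higher than at steady state. HXT3, another low-affinity transporter gene, went from 113, 107 and 109 to 509 and 539, a 4.76-fold rise (2.25 ± 0.183, adjusted p = 8.2e-07). HXT4 rose 2.9-fold, from 34.9, 31.0 and 31.5 to 75.3 and 117. For these 3 genes both 10 min arrays lay above all 3 steady state arrays, as they did for 21.9% of all genes. Of the transporter genes used when glucose is scarce, HXT6 alone passed the test as lower. HXT2 was at 1329, 1103 and 1503 before and 1589 and 1452 at 10 min (adjusted p = 0.28), though it was called higher under the common median. HXT5 was at 938, 1251 and 1026 before and 1113 and 1056 at 10 min (adjusted p = 0.89). HXT7 had a log2 change of -0.33 (adjusted p = 0.069) and was called lower after quantile normalization (-0.47) and with the replicate block (-0.43). HXT6 fell by a little (-0.47, adjusted p = 0.021), a call that was lost under the common median and without steady state replicate 2 or either 10 min array. Of the 8 hexose transporter genes with a measured probe set, 3 rose and 1 fell, and the 3 rises held under all 3 scalings. Close relatives such as HXT6 and HXT7, or HXT1 and HXT3, can share probe signal, which was not tested.

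Among the regulators that read glucose, the paralogs STD1 and MTH1, which both act with the repressor Rgt1 on the transporter genes, moved in opposite directions. MTH1 signals were 212.5, 200.5 and 192 at steady state, 49.5 and 58.9 at 5 min and 7.6 and 10.4 at 10 min, so that it was at the floor on both 10 min arrays, at least 16.8-fold lower (-4.07 ± 0.128, adjusted p = 1.6e-10). STD1 went from 50.7, 44.3 and 49.0 to 229.7 and 272, 5.21-fold higher (2.38 ± 0.132, adjusted p = 4e-08). The groups did not overlap for either gene, as for 45.0% of all genes in the lower direction and 21.9% in the higher. MIG2, encoding a repressor of glucose-repressed genes, rose at least 4.26-fold, from 10.9, 15.5 and 11.5 to 69.0 and 45.0, and MIG3, for a related repressor, rose from the floor to 15.6 and 20.4, a call lost without 10 min replicate 2. SNF3, the sensor of low glucose, fell to below the floor, from 43.2, 43.9 and 41.5 to 6.1 and 6.0. RGT2, the sensor of high glucose, had overlapping groups and a log2 change of 0.06 (adjusted p = 0.79). SIP2, a subunit of the Snf1 kinase complex, fell 4.12-fold, and the repressor gene NRG2 2.95-fold. In all, 3 of 27 members of the glucose sensing and repression list rose and 13 fell, with a median of -0.50. All 3 rises and 8 of the falls held under all 3 scalings. Among genes for other sugars 1 of 10 rose, the maltose transporter gene MAL11, and 5 fell, with GAL4, encoding the galactose activator, 5.07-fold lower and the maltose activator gene MAL33 4.51-fold lower, and 4 of these falls held.

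**Figure D2:**
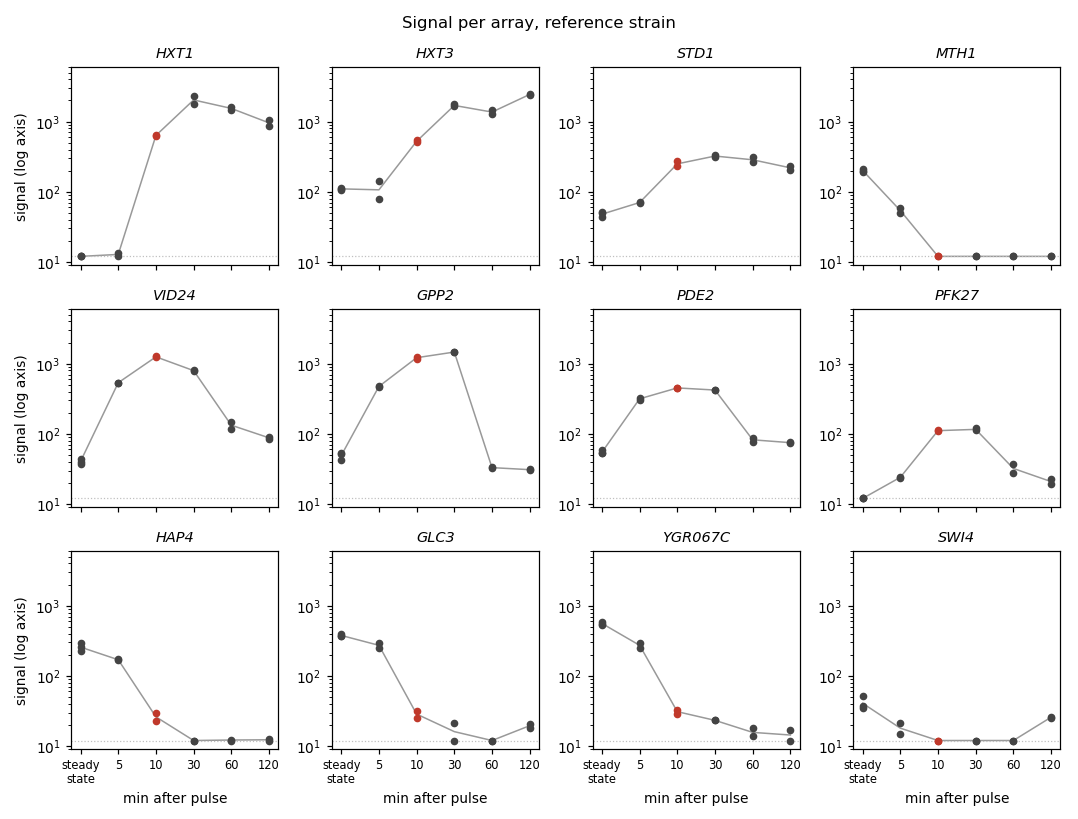
Signal (log y axis, values under 12 drawn at 12) on each reference strain array at steady state and 5, 10, 30, 60 and 120 min after the pulse (x axis, categories not to scale) for 12 genes. Red points are the 10 min arrays, the line joins geometric means and the dotted line is the floor. HXT1 stands at or near the floor until 5 min and at 645 and 624.5 at 10 min, while MTH1 reaches the floor at 10 min.

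Most glycolysis genes changed little, apart from PFK27. PFK27, which encodes a kinase making fructose 2,6-bisphosphate, the allosteric activator of phosphofructokinase, went from 10.1, 8.1 and 7.7 to 24.6 and 23.4 at 5 min and 113 and 109 at 10 min (3.21 ± 0.155, adjusted p = 1.2e-08, at least 9.25-fold). TYE7, which encodes an activator of glycolytic genes and is not in the list, went from 8.0, 20.3 and 20.6 to 157 and 229 (3.47 ± 0.402, adjusted p = 1.7e-05, at least 11.1-fold). Its 2 arrays differ more than those of most genes named here, and both lie above every steady state array. The phosphofructokinase subunit genes PFK1 and PFK2 rose by log2 changes of only 0.52 and 0.66, and TDH1, for an isoform of glyceraldehyde-3-phosphate dehydrogenase, by 0.80. The kinase genes HXK1 and GLK1, known as glucose-repressed, were at -0.50 and -0.57, calls that were lost under the common median, and for HXK1 also without steady state replicate 2 or either 10 min array. The activator genes GCR1 and GCR2 were at 0.32 and 0.39 (adjusted p = 0.14 and 0.048), and the GCR2 call was lost without any 1 of the 5 arrays. Of 20 glycolysis genes 9 rose and 4 fell, with a median of 0.27, and the 9 rises but none of the falls held under all 3 scalings. Of the rises, CDC19 and GPM1 also lost their calls without steady state replicate 1 or either 10 min array.

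In fermentation and glycerol production single genes rose strongly. PDC5, a pyruvate decarboxylase gene, went from 83.7, 93.9 and 75.4 through 110.1 and 106 to 554 and 539, 6.5-fold higher (2.70 ± 0.128, adjusted p = 9.6e-09). ALD5, for a mitochondrial aldehyde dehydrogenase, rose 3.14-fold, while ALD6, for the main cytosolic one, fell 2.85-fold, from 1694, 1747 and 1748 to 761 and 482. Across the fermentation list 5 of 13 rose and 4 fell (median 0.33), and 5 and 1 held. Glycerol formation consumes NADH when oxygen is missing. GPP2, encoding glycerol-3-phosphate phosphatase, went from 53.7, 51.4 and 42.8 to 465 and 482 at 5 min and 1252 and 1179 at 10 min, a 24.8-fold rise (4.63 ± 0.123, adjusted p = 4.2e-11). Its paralog GPP1 rose 5.8-fold and the dehydrogenase gene GPD2, the isoform linked to redox balance, 5.86-fold. GPD1, the isoform induced by osmotic stress, overlapped between the groups (0.16, adjusted p = 0.49). STL1, for the glycerol uptake symporter, went the other way, from 136, 104 and 134.5 to 16.9 and 11.5, at least 8.7-fold lower (adjusted p = 3.9e-08). Of 11 glycerol genes 3 rose and 4 fell (median -0.15), of which 3 and 2 held. The probe sets of GPP1 and GPP2 may share signal.

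The genes for making sugar and using 2-carbon compounds were already falling at 10 min. Of 28 measured members 21 fell and 0 rose, with a median log2 change of -0.91, and 18 of the falls held under all 3 scalings. The fructose-1,6-bisphosphatase gene FBP1, a key enzyme of gluconeogenesis, went from 746, 887 and 778.5 to 616 and 659 at 5 min and 295 and 284.5 at 10 min (-1.47 ± 0.124, adjusted p = 1.1e-06). Every array after the pulse lay below every steady state array. PCK1, for phosphoenolpyruvate carboxykinase, fell 1.94-fold, and ICL1 and MLS1, the glyoxylate cycle genes, 2.14-fold and 3.25-fold. SFC1, a mitochondrial succinate and fumarate carrier gene, fell 4.35-fold, from 758, 858 and 728 to 188 and 171. The activator genes moved with these: CAT8 was 3.66-fold lower and ADR1 2.69-fold lower. The ethanol-oxidising enzyme gene ADH2 was at 4266.5, 6116 and 4548 before and 4265 and 4195 at 10 min, a change that did not pass the test (adjusted p = 0.28).

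The GID ubiquitin ligase, which tags gluconeogenic enzymes for degradation after glucose is added, stood out for its substrate receptor. VID24 (also GID4), which encodes the subunit that recognises these enzymes, gave 39.8, 44.3 and 37.7 at steady state, 534 and 536 at 5 min, 1275 and 1224 at 10 min and 809 and 782 at 30 min. It was 30.8-fold higher at 10 min (4.95 ± 0.125, adjusted p = 4.1e-11), with no overlap of groups. In the other direction 8 of the 10 measured genes of the list fell (median -1.11, 7 under all 3 scalings), among them GID7 (-1.93), RMD5 (-1.72), UBC8 (-1.68) and VID30 (-1.63), which encode subunits of the ligase and its conjugating enzyme. The list also counts VID22 and VID27, which are not subunits of the ligase, so the count and median are not those of the complex alone.

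The oxidation of fatty acids followed the same direction, with 19 of 25 genes lower and 0 higher (median -0.71, 12 under all 3 scalings). PXA1, for a subunit of the peroxisomal fatty acid transporter, went from 160.5, 171 and 136 to 19.9 and 19.0, 7.97-fold lower (adjusted p = 6.7e-09), and POX1, the first enzyme of the pathway, was 3.14-fold lower. CRC1, for the mitochondrial carnitine carrier, fell 5.57-fold. Respiratory genes and their activator gene differed in size of change. HAP4, the limiting activator of respiratory genes, went from 224, 258 and 293 at steady state to 173 and 167 at 5 min and 29.4 and 23.1 at 10 min, 9.86-fold lower (-3.30 ± 0.155, adjusted p = 9.6e-09). Of the 40 respiratory chain and ATP synthase genes 8 were lower and 0 higher, with a median of -0.13 beside -0.19 over all genes, and 4 falls held. CYT1, for cytochrome c1, fell most among them, from 479, 547 and 437 to 142 and 198. In the tricarboxylic acid cycle list, which includes HAP4, 6 of 19 fell and 1 rose (median -0.29), and 2 falls held. The gene that rose was MAE1, for mitochondrial malic enzyme, from 139, 267 and 211 to 1167 and 1205 (5.97-fold). Of 66 mitochondrial ribosome genes 20 were lower and 0 higher (median -0.28), but only 5 under all 3 scalings. In each of these 3 lists the share of falls was below the 33.8% of all genes. The falls that held were 10% in the respiratory list, 10.5% in the tricarboxylic acid cycle and 7.58% in the mitochondrial ribosome, beside 16.5% of all genes. With the common median the medians of these 3 lists turned to 0.20, 0.04 and 0.05, and 5 respiratory genes were then higher and 4 lower.

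Storage carbohydrate genes were mostly lower. Of 20 glycogen and trehalose genes 17 fell and 0 rose, with a median of -0.97, and 14 held under all 3 scalings. GLC3, for the glycogen branching enzyme, went from 368, 399.5 and 364 at steady state through 249 and 298 at 5 min to 25.4 and 32.1 at 10 min, 13.2-fold lower (-3.72 ± 0.215, adjusted p = 6e-08). GAC1, which directs a phosphatase to glycogen synthase, was below the floor on both 10 min arrays, at 6.0 and 6.4 against 107.5, 100.2 and 114 (at least 8.92-fold lower, adjusted p = 1.6e-09). GSY1, a glycogen synthase gene, also fell below the floor, from 63.4, 83.7 and 59.3 to 11.2 and 10.1. On the trehalose side the synthesis genes TPS1 and TSL1 changed by -0.90 and -1.32 and the trehalase gene NTH2 by -2.34. The neutral trehalase gene NTH1 was at 0.35 with an adjusted p of 0.093.

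Genes of the general stress response and stationary phase were lower in 22 of 40 cases and higher in 2 (median -0.46), of which 13 and 2 held. SPG1, named for its need in stationary phase, went from 120.3, 144 and 202 to 10.0 and 10.4 (at least 12.7-fold lower), and the stress regulator genes USV1 and XBP1 were at least 6.75-fold and 3.96-fold lower. The 2 genes that rose were YRO2, from 278, 229 and 342.5 to 879.9 and 894, and MRH1, from 947, 1261 and 1009.7 to 1743.5 and 1966, which encode related membrane proteins. Of the stress-induced chaperone genes HSP26, HSP42, HSP78 and SSA3 were lower on the deposited scale, calls that did not hold under all 3 scalings. In the heat shock and chaperone list that they belong to, 10 of 28 genes rose, among them HSP30 and HSP82, and 6 fell. The 10 rises held under all 3 scalings and none of the falls did. The calls of FES1, HSP10, HSP150, HSP30, HSP82, MDJ1 and SIS1 were however each lost without at least 1 of the 5 arrays. Other members did not pass. HSP12, for a membrane-stabilising protein, was at 2474, 3968 and 2987 before and 2665 and 2817 at 10 min (adjusted p = 0.42), and HSP104, for a disaggregase, had a log2 change of -0.17 (adjusted p = 0.45). In the Ras and protein kinase A list 3 of 17 rose and 3 fell (median -0.16), of which 3 and 2 held. Those that held were 17.6% and 11.8% of the list, beside 15.6% and 16.5% of all genes. PDE2, for the high-affinity phosphodiesterase that breaks down cAMP, went from 52.7, 58.2 and 53.2 to 325 and 307 at 5 min and 449 and 453 at 10 min (8.25-fold, adjusted p = 9.9e-10). RAS1 rose 3.46-fold, from 57.7, 69.5 and 58 to 211 and 214, RGS2, for a regulator of the Gpr1 receptor's G protein, rose at least 2.32-fold, and the catalytic subunit gene TPK2 fell 1.91-fold. Autophagy genes were lower in 15 of 23 cases and higher in 0 (median -0.79, 10 under all 3 scalings), with ATG7, for the activating enzyme of the conjugation systems, at 9.7 and 9.3 against 70.8, 58.4 and 78.1. Antioxidant genes showed 1 rise and 6 falls among 25 (median -0.16), and 1 and 1 held, with 4 rises and 1 fall under the common median.

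Genes for assembling ribosomes rose almost throughout. Of 68 genes of the small subunit processome, which cuts and folds the precursor of the small subunit rRNA, 63 rose and 0 fell, with a median log2 change of 1.20. Of 80 genes for assembly and export of the large subunit 72 rose and 0 fell, with a median of 1.21. All of these rises held under all 3 scalings. UTP5, a processome subunit gene, went from 60.6, 31.8 and 59.3 at steady state to 99.3 and 81.0 at 5 min and 325 and 308 at 10 min (6.52-fold, 2.70 ± 0.244, adjusted p = 2.1e-06). NSR1, for the nucleolin-like protein, went from 363, 383 and 343 to 1515.5 and 1309 (3.88-fold). In the large subunit group PXR1, which acts in pre-rRNA processing, went from 149, 140.0 and 149 to 679 and 886 (5.32-fold, adjusted p = 9.8e-08), and BUD20, for an export factor, from 119, 151 and 139 to 713 and 673 (5.1-fold). For each of these genes the arrays at 10 min stood above those at 5 min, and those above steady state.

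The ribosomal proteins themselves had risen far less. Of the 80 genes of this family with a probe set of their own, 31 rose and 0 fell, with a median of 0.27, and 21 held. The count depended on the scaling, with 23 higher after quantile normalization (median 0.18) and 70 under the common median (median 0.60). The other 57 of the 137 genes of the family, most of them with a near-identical paralog, were not analysed here. RPL22B changed most, from 334, 306.5 and 270.1 to 639 and 769 (2.32-fold). Among the RNA polymerase I and III genes 20 of 40 rose and 6 fell (median 0.45), of which 20 and 3 held. RRN11, for a subunit of the core factor of polymerase I, rose at least 4.4-fold, and the polymerase subunit genes RPC37, RPA34 and RPA12 rose 4.05-fold, 3.81-fold and 3.31-fold. RRN3, for the initiation factor that recruits polymerase I, went against them. Its signals were 83.3, 72.3 and 99.1 at steady state, 26.1 and 28 at 5 min, 18.5 and 19.3 at 10 min and 165 and 219 at 30 min, so the 10 min value was 4.46-fold below steady state (-2.16 ± 0.176, adjusted p = 8.7e-07) and both 30 min arrays lay above it. Among the regulators of ribosome genes 3 of 19 rose and 9 fell (median -0.25), of which 3 and 4 held, with 5 and 4 under the common median. Those that held were 15.8% and 21.1% of the list, beside 15.6% and 16.5% of all genes. IFH1, a co-activator of ribosomal protein genes, rose 4.61-fold, from 56.2, 69.7 and 57.8 to 308 and 256, the repressor gene TOD6 rose 3.13-fold, and SFP1 rose 1.43-fold (adjusted p = 0.0054). YAK1, encoding a kinase opposed to protein kinase A, fell 2.58-fold, and CRF1, a co-repressor gene, 2.67-fold. TOR1, for a growth-controlling kinase, fell by 1.44 on the log2 scale on the probe set with the highest signal, while its next 2 probe sets changed by -1.75 and -0.26, the last with an adjusted p of 0.41. Of 34 translation factor genes 22 rose and 1 fell (median 0.46, 19 and 0 under all 3 scalings), and of 21 aminoacyl-tRNA synthetase genes 9 rose and 0 fell (median 0.33, 7 held). Under the common median 26 translation factor genes and 19 synthetase genes rose, and 0 fell in either list.

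In the lists for building blocks more genes rose than fell. Among 41 genes of nucleotide synthesis 17 were higher and 2 lower (median 0.24), of which 16 and 1 held. IMD4, for the enzyme of the first step toward GTP, went from 62.4, 35.6 and 48.1 to 355 and 355, 7.49-fold higher (adjusted p = 3.5e-07), and the purine-cytosine permease gene FCY2 rose 4.39-fold. RNR1, the large subunit of ribonucleotide reductase, fell 2.16-fold, from 488, 603 and 475 to 275 and 209.8. Of 64 amino acid synthesis genes 33 rose and 2 fell (median 0.34, 31 and 1 held), led by SER2 (4.51-fold), the last enzyme of serine synthesis, and the asparagine synthetase gene ASN1 (3.95-fold). In sulfur assimilation 13 of 25 rose and 2 fell (median 0.46, 13 and 1 held), including the methionine permease gene MUP1, from 231, 158 and 220.5 to 708 and 623, and the regulator gene MET31 (2.74-fold). SUL2, a sulfate permease gene, stood at 336.5, 321 and 418 at steady state, 190.0 and 148 at 5 min and 772 and 703 at 10 min, so both 10 min arrays were the highest of these. Among amino acid and nitrogen permease genes 14 of 32 rose and 6 fell (median 0.26, 13 and 2 held), with the ammonium permease gene MEP3 3.62-fold higher and the proline permease gene PUT4 2.69-fold lower.

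PHO84, which encodes the high-affinity phosphate transporter, showed the largest rise of all genes tested. Its signals were 1.1, 8.3 and 4.7 at steady state, 15.8 and 21.3 at 5 min, 1034.5 and 1203 at 10 min, 84.7 and 96 at 30 min and 12.9 and 19.7 at 60 min. Both 10 min arrays thus stood far above all others, with a log2 change from steady state of 6.54 ± 0.190 (adjusted p = 7.3e-11), at least 93-fold. PHO89, for the sodium-coupled phosphate transporter, rose from 144, 167 and 112 to 593 and 691 (4.61-fold), and the low-affinity transporter gene PHO90 from 241, 271 and 248 to 936 and 914 (3.66-fold). In the phosphate regulon as a whole 9 of 22 rose and 6 fell, with a median of 0.10, so the list did not move as one, and 9 and 3 held. The acid phosphatase gene PHO5, the classical marker of phosphate starvation, was too low on these arrays to be tested. PHO80, the cyclin that keeps the pathway off, fell 2.13-fold, from 93.1, 67.9 and 63.4 to 37.6 and 31.8.

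Sterol synthesis, anaerobic, chaperone, proteasome and cell cycle genes made up the remaining lists. Ergosterol synthesis genes fell in 14 of 29 cases and rose in 1 (median -0.36), of which 10 and 1 held, with HMG1, the regulated step of the pathway, going from 1624, 2096 and 1834 to 636 and 563 (3.08-fold lower) and ERG5 3.59-fold lower. Of 26 genes known from anaerobic or hypoxic growth 3 rose and 8 fell (median -0.16, 3 and 2 held), a share of falls below the 33.8% of all genes. One that rose was FET4, for a low-affinity iron transporter, from below the floor to 35.5 and 42.8, and DAN1, a cell wall gene of anaerobic cells, was below the floor on all 5 arrays. Of 28 heat shock and chaperone genes 10 rose and 6 fell (median 0.15). The 10 rises but none of the falls held under all 3 scalings, and several of the rises were lost without single arrays. YDJ1, for a J-domain co-chaperone, went from 1406.5, 1661.5 and 1461 to 2869 and 2610.3 (0.86, adjusted p = 1.6e-05). Of 34 proteasome genes 5 fell and 0 rose, with a median of -0.08, and 1 fall held, while under the common median 7 rose and 1 fell (median 0.26). RPN4, the gene of their activator and counted in the list, fell 2.07-fold. Of 21 genes of G1 and Start 9 fell and 0 rose (median -0.34, 5 held). Among these SWI4, for the DNA-binding subunit of a G1 transcription factor, dropped below the floor, from 36.7, 52.4 and 35.1 to 7.4 and 6.8, and the G1 cyclin genes CLN1 and CLN2 were 2.82-fold and 2.9-fold lower. CLN3, the most upstream G1 cyclin, was at 0.20 with an adjusted p of 0.46. Of the 7 measured markers of a cells 4 were lower and 0 higher (median -0.45, 1 held), and the 3 alpha markers had a median of -0.12.

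Exporters and transporters that sit outside these pathways were among the strongest single changes. AQR1, for a plasma membrane exporter of organic acids and amino acids, went from 3.2, 4.1 and 3.7 to 160.5 and 161 at 5 min and 523 and 443 at 10 min (5.33 ± 0.150, adjusted p = 6.9e-11, at least 40.1-fold). TPO2, for a polyamine exporter, went from 80.2, 78.6 and 83.3 through 172 and 173 to 1257.5 and 1108 (14.6-fold, adjusted p = 7.3e-11), and MCH5, for the riboflavin transporter, from 38.1, 37.7 and 31.6 through 59.4 and 51.2 to 503 and 542 (14.6-fold). AQR1 had thus turned on by 5 min, whereas MCH5 changed mainly between 5 and 10 min. In the list of drug and organic acid exporters 4 of 18 rose and 6 fell (median 0.00, 4 and 3 held, and 8 and 3 under the common median), with PDR12, the acid exporter, at 96.4 and 78.3 against 51.1, 48.4 and 84.0. The share that fell was near the 33.8% of all genes. The rises and falls that held were 22.2% and 16.7% of the list, beside 15.6% and 16.5% of all genes. The arrays of PDR12 overlap between the groups, and its call was lost without steady state replicate 1 or 2 or either 10 min array. The list of arrestin-like adaptors, which direct the removal of transporters from the membrane, also counts the ubiquitin ligase gene RSP5, 1 of its falls. In this list 6 of 13 genes fell and 0 rose (median -0.48, 2 held), though 4 rose and 2 fell under the common median. The falls that held were 15.4% of the list, beside 16.5% of all genes. The largest fall was that of ROD1, from 50.1, 42.8 and 58.2 to 8.9 and 9.4. SSH4, another adaptor gene, fell at least 9.34-fold, to 8.0 and 10.0. A second, dimmer probe set of SSH4 was also below the floor at 10 min.

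Several of the largest changes fell on genes with little known function. YOR338W went from 49.6, 18.3 and 37.9 to 752 and 756 (23.2-fold, adjusted p = 1.4e-07), YDR222W from 47.5, 63.8 and 56.1 to 740.1 and 1009.6 (15.6-fold), and FSH1, for a putative serine hydrolase, from 102, 106.5 and 86.7 to 1196 and 1293 (12.7-fold). Both probe sets of PRM7, a gene named for its response to pheromone, rose, by 3.95 and 4.05. The largest fall of all was that of ECM13, at 397.5, 422 and 470.1 at steady state, 22.9 and 27.0 at 5 min and 8.1 and 10.7 at 10 min, at least 35.7-fold lower (-5.16 ± 0.133, adjusted p = 4.1e-11). The zinc finger gene YGR067C went from 549, 539 and 589 to 33.1 and 28.9 (18.1-fold lower), YPL113C from 216, 231 and 206.5 to 11.5 and 12 (at least 18.1-fold) and YMR206W from 461, 728 and 624 to 40.5 and 32.5 (16.4-fold). The 10 min arrays of these genes did not overlap the steady state arrays, which the rule for naming the largest changes required. MRK1, for a kinase of the GSK-3 family, was at least 9.98-fold lower on its brighter probe set, its other being below the floor at 10 min, and ECL1, LUG1 and ISF1 9.38-fold, 8.37-fold and 8.54-fold lower.

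Set against the 5 min arrays, the 10 min arrays showed 667 genes higher (12.7%) and 1047 lower (19.9%), and 655 and 653 of these held under all 3 scalings. The change was at least 2-fold for 259 of the higher genes (4.93%) and 291 of the lower ones (5.54%). This comparison and that with steady state share the 10 min arrays, so their values are given side by side and not as independent evidence. Ribosome assembly made much of its rise after 5 min, with 61 of 68 processome genes and 73 of 80 large subunit assembly genes higher at 10 than at 5 min (medians 1.14 and 0.99, beside -0.10 over all genes). HXT1 rose by 5.63 and PHO84 by 5.93 on the log2 scale in those 5 min, against at least 5.72 and at least 6.54 from steady state. Both were below the floor at steady state, so the share of their rise that came after 5 min is not known. MCH5 rose by 3.24 of its 3.87, and YDR222W by 3.42 of its 3.96. Other genes had made most of their change earlier: AQR1 rose by 1.58 after 5 min of at least 5.33 in all, GPP2 by 1.36 of 4.63, and PDE2 by 0.52 of 3.04. Falls also divided in this way. ECM13 had come down to 22.9 and 27.0 at 5 min and ROD1 to 12.3 and 12.8, and since both were below the floor at 10 min their later step is only a bound, while ISF1 changed by -3.08 (of -3.09) and GLC3 by -3.25 (of -3.72). ISF1, whose role is in mitochondrial expression, still lay at its steady state level at 5 min, with 394, 452 and 422 at steady state, 408 and 428 at 5 min and 58 and 42.1 at 10 min. In gluconeogenesis and 2-carbon use 19 of 28 genes were lower at 10 than at 5 min (median -0.84), and in glycogen and trehalose metabolism 16 of 20 (median -0.91).

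**Figure D3:**
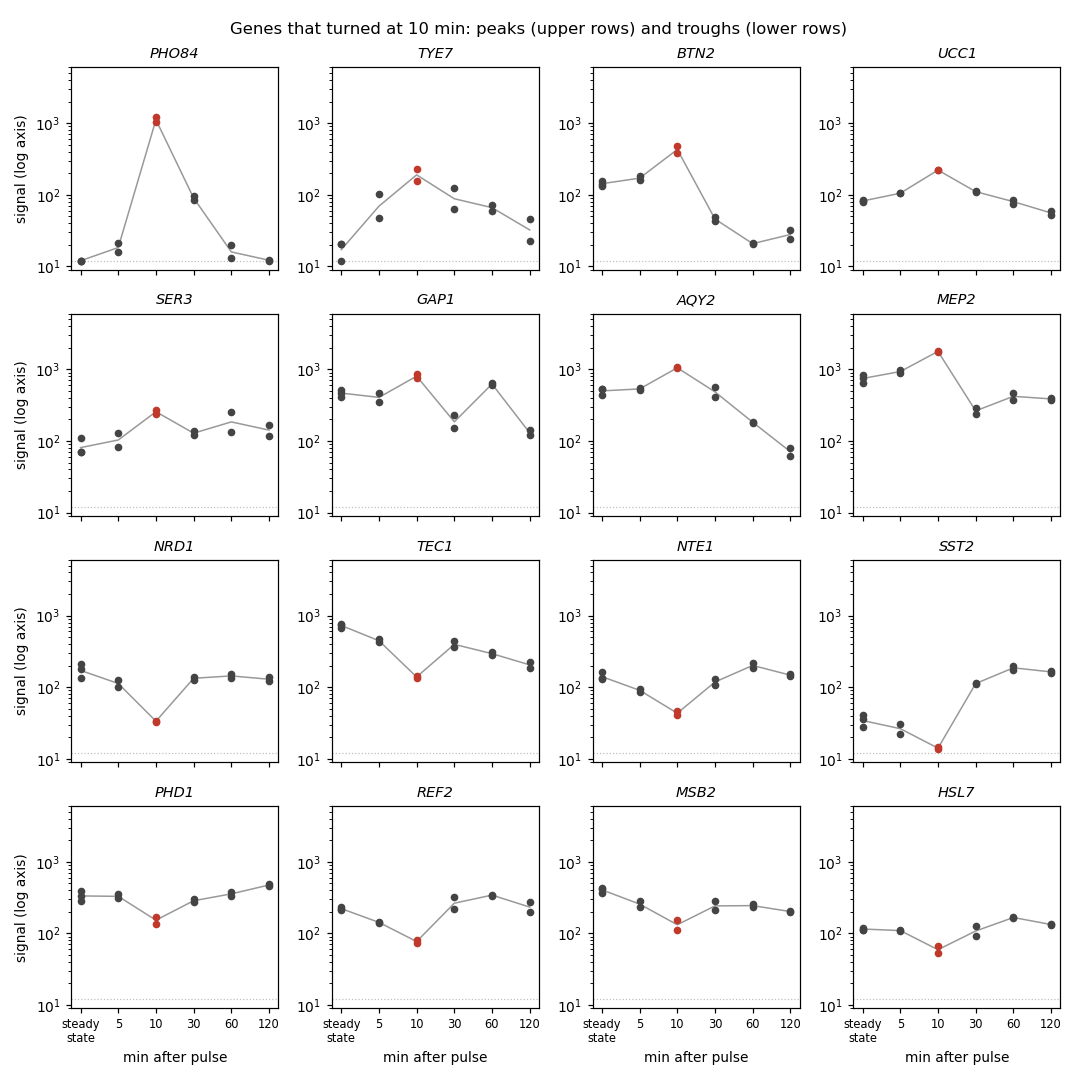
Signal (log y axis, values under 12 drawn at 12) on each reference strain array over time (x axis, categories not to scale) for the 8 peaks and 8 troughs at 10 min with the largest turn. Red points are the 10 min arrays, the line joins geometric means and the dotted line is the floor. In the upper rows both 10 min arrays lie above all 5 and 30 min arrays, and in the lower rows below them.

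Some genes turned at 10 min. Against the mean of 5 and 30 min, 1296 genes were higher (24.7%) and 467 lower (8.89%), a split that moved from 73.5% higher to 43.9% with the common median. A peak, defined as passing this test with both 10 min arrays above all 5 and 30 min arrays, was found for 194 genes (3.69%), and a trough for 171 (3.25%). The test was passed under all 3 scalings by 88 of the peaks and by all 171 troughs. The phosphate regulon held 8 peaks among 22 genes and the heat shock list 8 among 28, of which 6 and 5 passed under all 3 scalings. PHM8, for a nucleotide phosphatase, stood at 10.7 and 13.4 at 5 min, 30.9 and 35.0 at 10 min and 14.1 and 5.7 at 30 min. PHO89 stood at 427 and 541 at 5 min, 593 and 691 at 10 min and 78.9 and 69.0 at 30 min, where the first step alone did not pass (adjusted p = 0.14). Among the chaperones the Hsp90 gene HSP82 stood at 879.8 and 739 at 5 min, 1265 and 1421 at 10 min and 382.5 and 442 at 30 min. The co-chaperone gene SIS1 stood at 766 and 679 at 5 min, 1068 and 1179 at 10 min and 477 and 548 at 30 min. For both chaperone genes the rise over steady state was small (0.63 and 0.52), and it was lost for SIS1 without 10 min replicate 2 and for HSP82 without any 1 of the 5 arrays.

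Nitrogen permease genes were among the peaks too. GAP1, for the general amino acid permease, stood at 410.3, 474 and 522 at steady state, 355 and 466 at 5 min, 753 and 858 at 10 min and 228 and 151 at 30 min. MEP2, for the high-affinity ammonium permease, stood at 753, 654 and 844 at steady state, 887 and 982 at 5 min, 1739 and 1825 at 10 min and 237 and 293 at 30 min. Both were highest at 10 min, which against 5 and 30 min the definition of a peak required, and lay below all steady state arrays at 30 min. UCC1, for an F-box protein that targets a citrate synthase, peaked at 221 and 222, against 105 and 105.5 at 5 min and 109 and 112 at 30 min. BTN2, which acts in the sorting of misfolded proteins, peaked at 383 and 482, against 161 and 181.5 at 5 min and 43.1 and 48.8 at 30 min. At 30 min UCC1 was still above its steady state arrays and BTN2 below them.

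Troughs included genes of RNA 3' end formation and of filamentous growth. NRD1, which acts in terminating short transcripts, went from 133, 209 and 182 at steady state and 100.7 and 126 at 5 min to 33.1 and 33.9 at 10 min and back to 139 and 128 at 30 min. REF2, of the RNA cleavage machinery, went from 139 and 146 at 5 min to 72.6 and 81.6 at 10 min and 218 and 319 at 30 min. Both 10 min arrays of these genes lay below every other array named here, which for the 5 and 30 min arrays the definition of a trough required. TEC1, an activator of filamentous growth genes, went from 738, 677 and 772 at steady state and 424 and 469 at 5 min to 142 and 136 at 10 min and 361 and 436 at 30 min. MSB2, for a signalling mucin upstream of that programme, went from 284 and 232 at 5 min to 154 and 113 at 10 min and 280.5 and 209 at 30 min. SST2, which dampens the pheromone response, was at 14.7 and 13.5 at 10 min, between 22.4 and 31.0 at 5 min and 109 and 116 at 30 min. The 10 min level of these 5 genes also differed from steady state, with log2 changes of -2.36 for NRD1, -1.53 for REF2, -2.39 for TEC1, -1.62 for MSB2 and -1.28 for SST2.

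Between 10 and 30 min 1017 genes rose (19.3%) and 2156 fell (41.0%), or 60.4% in all, with a median over all genes of -0.24, and 918 and 1315 held under all 3 scalings. Most of the fall of respiratory genes came after 10 min. Of the 40 respiratory chain and ATP synthase genes 38 fell after 10 min (median -3.62), beside the 8 that were lower at 10 min than at steady state. All 38 held under all 3 scalings. In the tricarboxylic acid cycle 18 of 19 fell (median -3.92), with the aconitase gene ACO1 at 1426, 1651 and 1849.5 at steady state, 1039 and 1009.8 at 10 min and 24.2 and 24.1 at 30 min. Proteasome genes followed, with 33 of 34 lower (median -1.60, 31 held), as did the mitochondrial ribosome, with 58 of 66 lower (median -1.04, 28 held). HXT5, which had not passed the test at 10 min, went from 1113 and 1056 to 18.9 and 16.4, and NDI1, for the internal NADH dehydrogenase, from 599.9 and 577 to 13.8 and 10.3. Of the 2-carbon genes 25 of 28 fell further (median -3.64), and FBP1 went from 295 and 284.5 to 13.7 and 13.2.

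The rise of ribosome assembly went on, with 58 of 68 processome genes and 67 of 80 large subunit genes higher again at 30 min (medians 0.91 and 1.00, 56 and 65 held). Of 80 ribosomal protein genes 78 rose and 1 fell, with a median of 0.79. Only 31 and 0 held under all 3 scalings, and the other scalings moved the median of all genes from -0.24 to 0.09 and 0.23. Single genes low at 10 min then rose steeply. ANB1, for the hypoxic form of a translation factor, went from 26.4 and 29.2 to 2782 and 3064.5, OPT1, for a glutathione and peptide transporter, from 12.7 and 14.9 to 238 and 269.5, and PDR12 from 96.4 and 78.3 to 1626 and 1604. For these 3 genes the 10 and 30 min arrays lay far apart. The plot of 8 lists before and after 10 min shows the order, with ribosome assembly and 2-carbon genes moving on both sides of 10 min and respiratory genes near the median of all genes before it and far below it afterwards.

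**Figure D4:**
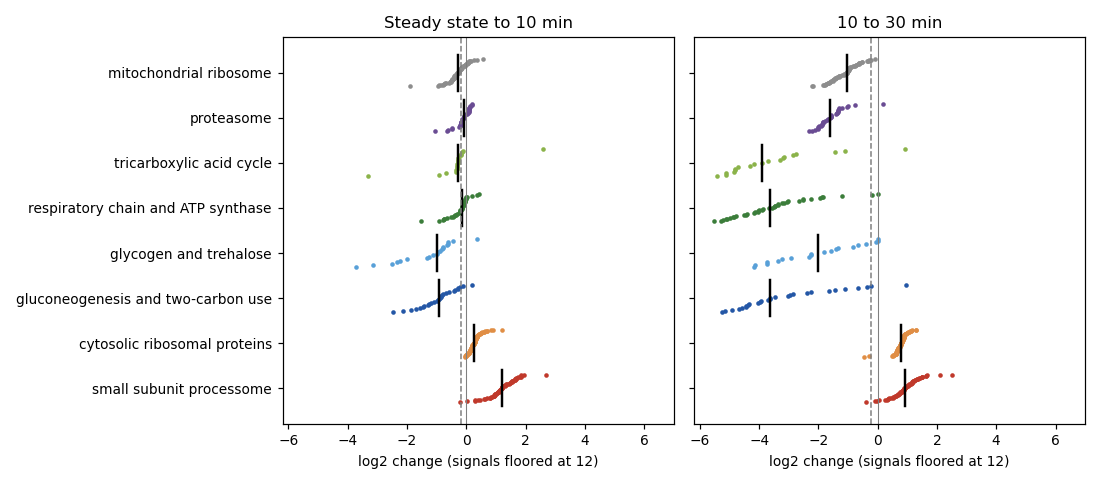
Log2 change (x axis) from steady state to 10 min (left) and from 10 to 30 min (right) for each measured member (points) of 8 gene lists (rows), with list medians as black bars and the median of all genes as a dashed line. The respiratory chain list has medians of -0.13 on the left and -3.62 on the right, and the small subunit processome 1.20 and 0.91.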

How the data were processed

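RNA was measured on 1-colour Affymetrix yeast arrays, 26 in the series. The values used are linear signal intensities per probe set as deposited by the authors, made with GCOS per the submitters' processing notes, which give no version. On the 13 reference strain arrays their 2% trimmed mean is 149.91 to 149.95. No build is given in the sources used here, and no coordinates or sequences are reported. Promoter sequences were not used here, so the planned motif counts were not made.

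Of 9335 probe sets, 60 controls, 328 with several gene names and 2443 with none in the platform annotation were left out. The other 6504 gave 5656 genes, and for 315 genes with several probe sets the one with the highest mean signal was used. A further 400 genes above a signal of 12 on fewer than 2 reference arrays were left out, so 5256 were tested.

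Signals were floored at 12, and log2 values of the 13 reference strain arrays in 6 groups were fitted with limma 3.58.1 in R 4.3.3 (lmFit, contrasts, eBayes with an intensity trend, 7 residual and 5.46 prior degrees of freedom). Except as follows, p-values are from that fit, 2-sided, adjusted by Benjamini-Hochberg over all 5256 genes and called under 0.05. Those of CIT1 and FAA4 under the common median are from the fit on that scaling. The value for a dimmer TOR1 probe set is from a fit of all probe sets, adjusted over those. The deletion strain was left out because some of its arrays did not match the other replicate of their label. On simulated data for 10 min against steady state (5256 genes) the fit recovered 95 of 100 genes changed by a log2 of 1 and 100 of 100 changed by 2, with 8 unchanged genes called. The changed genes were taken only from those well above the floor, and the noise was normal with the fitted spread. Recovery of genes near the floor was therefore not tested. Replicate numbers were not taken as pairs. Deviations of same-numbered arrays correlated at -0.1 between steady state and 10 min. Among the times after the pulse they correlated at 0.08 to 0.27, weak but always positive. These values do not settle whether the times after the pulse shared vessels, so the replicate block was tried as an alternative.

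The gene lists, tests and groups were chosen with earlier results of these data known. Genes named are the 15 largest non-overlapping rises and falls with a mean signal of at least 100, the 6 largest per direction between neighbouring times, the 8 largest peaks and troughs, list members (for lists over 30 genes the 4 with the largest change in each direction), SFP1, actin and mating type markers. The alternatives tried were other scalings, floors, filters, probe set rules, variance models and thresholds, other arrays in the fit, the replicate block and leaving out each replicate. Plots were made in Python 3.11.15 (matplotlib 3.10.9).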

Additional observations from a re-analysis of the deposited data

How the results depend on the processing

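Among named genes that passed the test at 10 min against steady state, the direction held in all alternatives except for CIT1 and FAA4, which fell on the deposited scale and were at 0.04 and 0.04 under the common median (adjusted p of 0.75 and 0.78). Over all named genes and alternatives 8829 values kept their call, 675 lost it and 181 gained it, and 195 list counts moved by more than 1.5 times while 1097 did not. Fitting all 26 arrays, which include replicates that do not match and ended calls such as those of FBP1, ICL1 and PHO89, gave 416 genes higher and 920 lower against steady state, 156 and 278 against 5 min, 535 higher from 10 to 30 min, and 256 and 71 against the mean of 5 and 30 min. The common median gave 1465 and 901, 672 lower, 2148 and 1327, and 782 and 1001 for these 4 comparisons, and quantile normalization gave 1743 higher from 10 to 30 min and 806 higher against the mean of 5 and 30 min. A floor of 48 left 1162 lower against steady state, 1387 lower from 10 to 30 min and 833 higher against the mean. Testing only genes with a group mean over 96, which tests fewer genes, left 887 lower against steady state and 656 lower against 5 min. An adjusted p under 0.01 left 430 higher and 632 lower against 5 min, and 857 and 240 against the mean. Requiring a 2-fold change left 330 and 585, 259 and 291, 343 and 1366, and 413 and 52. Leaving out 1 array gave 606 to 866 higher and 1329 to 1751 lower against steady state, 411 to 532 and 591 to 821 against 5 min, 827 to 926 and 1875 to 2045 from 10 to 30 min, and 786 to 1316 and 221 to 456 against the mean. Without 10 min replicate 2 the counts were 411 and 668 against 5 min and 786 and 221 against the mean, without 10 min replicate 1 there were 255 lower against the mean, and without 5 min replicate 2 there were 591 lower against 5 min. The replicate block, whose numbers were not taken as pairs, gave 810 higher and 1725 lower against steady state, 689 and 1077 against 5 min, and 1050 and 2182 from 10 to 30 min. The causes of these shifts were not tested unless stated. With 2 arrays at 10 min the precision rests on the spread of all reference arrays, and signals near 12 allow only bounds. Paralogs with similar sequence may share probe signal, and glucose, nitrogen and the stopped feed cannot be told apart.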
